A study of Homo sapiens with 6 samples.

Results

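The genes described here are 6 transcription factors of the epithelial-to-mesenchymal transition (ZEB1, ZEB2, SNAI1, SNAI2, TWIST1 and TWIST2), 3 classical cadherins (CDH1, CDH2 and CDH11) and the epithelial adhesion protein EPCAM. They were chosen by symbol, as the rows of the deposited expression table whose name, split at commas, contains 1 of the 10 symbols. All 10 were found, in 10 of the 24108 rows. RNA-seq measured 3 shCtr and 3 shZNF148 samples of MDA-MB-231, a long-established line of triple-negative breast cancer that the labels class as basal. Cells of the shCtr group carried a lentiviral hairpin against luciferase (shControl in the labels), and cells of the shZNF148 group a lentiviral hairpin against the zinc finger transcription factor ZNF148 (shZnf148 in the labels). Both groups were transduced for 48 h and kept for 24 h in 0.5 µg/ml puromycin. The RNA came from early-passage cells, and the comparison rests on 1 hairpin against 1 control hairpin, so loss of ZNF148 and any other action of that hairpin cannot be told apart. The labels do not say that repeats were separate cultures, so p-values measure only the spread between these samples.

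In the epithelial-to-mesenchymal transition, cells loosen their contacts, change shape and become motile. ZEB, SNAI and TWIST proteins are transcription factors that take part in this change, and ZEB and SNAI proteins bind E-box words in the promoters of epithelial genes such as CDH1 and repress them. A fall in E-cadherin with a rise in N-cadherin is known as the cadherin switch, and MDA-MB-231 is known as a line with mesenchymal features.

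Short sequences are shown first, because hairpin guides can pair with transcripts other than their target through a short word. The 21-base target of the hairpin is listed in the study's oligonucleotide table, and its capitals mark the 7-base word that pairs with guide bases 2 to 8. In the canonical transcripts of GENCODE release 44 (GRCh38), the 3′ UTRs of ZEB1 and CDH2 each held this word 1 time. The windows below lie at chr10:31529708-31529736 on the plus strand for ZEB1 and at chr18:27951004-27951032 on the minus strand for CDH2, with the word in capitals.
Hairpin target: cccttggtgaatgTAAATGAt
ZEB1 3′ UTR: agaatatatgtTAAATGAtctaataattt
CDH2 3′ UTR: gtaccagaataTAAATGAtacacctctga
The other 8 genes had no such word in their 3′ UTR, and 20% of 19701 canonical transcripts held it. A match is a description of letters and not a measured site. The ZEB1 and CDH2 values given below are those to read beside it.

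The E-box words CACCTG and CAGGTG, which are each other's reverse complement, were searched on both strands in RefSeq promoter windows (GRCh38.p14, 250 bases before to 50 after a start). Windows were at hand for ZEB1 (7 starts), ZEB2, TWIST2 and CDH2 (2 starts), and not for CDH1, CDH11, EPCAM, SNAI1, SNAI2 or TWIST1. Of all 35116 windows, 20.6% held a word. Those of ZEB2, TWIST2 and CDH2 held none, and 2 of the 7 ZEB1 windows did. The stretches below show the first word of each of the 2, in capitals, at chr10:31318348-31318377 and chr10:31318966-31318995 on the plus strand.
ZEB1 start, first window: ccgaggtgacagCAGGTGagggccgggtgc
ZEB1 start, second window: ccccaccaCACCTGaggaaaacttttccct

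The values are FPKM, which scale fragments to transcript length and library size, so levels of different genes can be set side by side per length. Summed FPKM per sample lay between 497730 and 507312 in shCtr and between 469594 and 488173 in shZNF148, so every shZNF148 total was the lower. Relative depth, read from the spacing of low values with shCtr replicate 1 set to 1, was lowest in shZNF148 replicate 3 (0.806) and highest in shZNF148 replicate 1 (1.13). ZNF148 itself was at 3.72, 4.36 and 4.30 FPKM in shCtr and at 0.914, 0.282 and 0.834 FPKM in shZNF148, or 16.4% of the control mean. The 6 basal, claudin-low markers, among them VIM (an intermediate filament protein of mesenchymal cells) and CD44 (a hyaluronan receptor), summed to 3175 to 3288 FPKM in shCtr and to 2633 to 2730 FPKM in shZNF148. Of these 6 markers, 0 had a positive log2 fold change (median -0.26). By the limma test given below, 1 was called lower (16.7%, against 5.49% of all tested rows). The 8 luminal markers summed to 629 to 670 FPKM in shCtr and to 530 to 696 FPKM in shZNF148, mostly from keratin and ERBB2 rows, while ESR1, the estrogen receptor, was listed at 0 in all 6 samples. In bulk RNA, fewer cells that express a gene and less RNA per cell cannot be told apart. The fibroblast marker DCN was at 2.82 FPKM in shCtr replicate 2 and at 0 in the other 5 samples.

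In the control cells, SNAI2 and ZEB1 stood highest of the 10 genes and the TWIST genes lowest. SNAI2 had a mean of 13.9 ± 2.34 FPKM (SD, n = 3), ZEB1 of 13.3 ± 0.377 and EPCAM of 10.6 ± 0.592. SNAI1 followed at 3.03 ± 0.605 FPKM and ZEB2 at 1.16 ± 0.285. CDH2 was at 0.482 ± 0.0850 FPKM, CDH1 at 0.368 ± 0.113 and CDH11 at 0.0498 ± 0.0862. The ranges of neighbours in this order overlapped for SNAI2 with ZEB1 and for CDH2 with CDH1, so neither pair differed beyond its spread. CDH11, at 0 in 2 shCtr samples, did not stand apart from the TWIST genes, and the ranges of the other neighbours did not overlap. Of the 16352 rows above 0 in shCtr, 66.4% lay below SNAI2, 38.8% below SNAI1 and 21.5% below CDH1. TWIST1 (chromosome 7, 19020991 to 19117636, minus strand) and TWIST2 (chromosome 2, 238848032 to 238910534, plus strand) were listed at 0 in all 6 samples, so no fold change can be given for either. A 0 in FPKM can be a failed estimate, and the depth behind these rows is unknown.

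**Figure D1:**
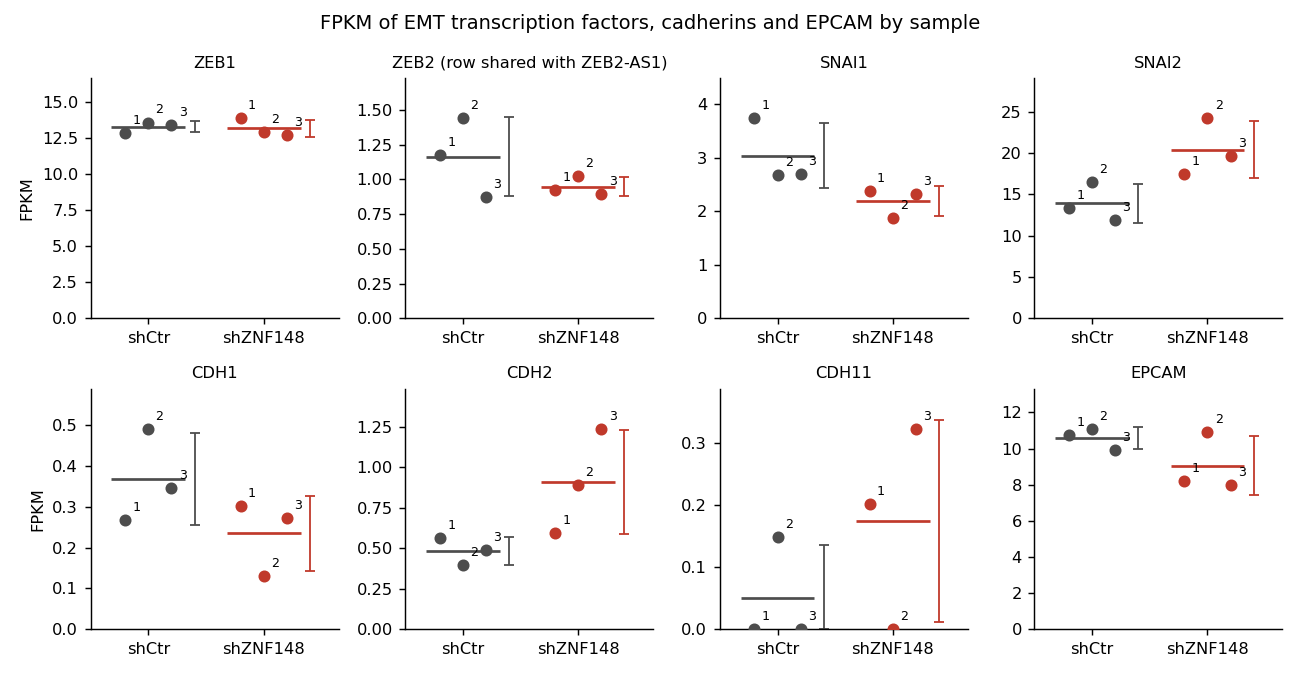
FPKM (linear axis from 0) of the 8 genes above 0, by sample, for shCtr (grey) and shZNF148 (red). Points are samples numbered by replicate, horizontal lines are group means and bars are ± 1 SD (n = 3). The lower bar of CDH11 in shCtr is cut at 0, as its SD exceeds its mean. SNAI2 and CDH2 lay higher and SNAI1 lower in every shZNF148 sample, and the groups overlapped for the other 5 genes.

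None of these genes was called changed after ZNF148 knockdown. Of the 10, 5 reached a mean of 1 FPKM over the 6 samples and were tested with limma on log2(FPKM + 1), and 0 of the 5 passed an adjusted p under 0.05 with a change of more than 1.5-fold. Over all 11777 tested rows, 5.49% were called, 1.83% higher and 3.66% lower in shZNF148. These 216 higher and 431 lower rows became 3 and 26 without shCtr replicate 1, 76 and 175 without shCtr replicate 2, 7 and 40 without shCtr replicate 3, and 79 and 232 without shZNF148 replicate 1. At an unadjusted p under 0.05, limma passed 1 of the 5 (SNAI2) and 33.8% of all tested rows. Fold changes below are on the log2(FPKM + 1) scale, shZNF148 minus shCtr, which understates the change of low genes. The median over all tested rows was 0.0061.

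ZEB1, a zinc finger and homeodomain repressor of epithelial genes (chromosome 10, 31318495 to 31529814, plus strand), had nearly the same level in both groups. It was at 12.8, 13.6 and 13.4 FPKM in shCtr and at 13.8, 12.9 and 12.7 FPKM in shZNF148. The groups overlapped, with the highest value in shZNF148 replicate 1. The log2 fold change was -0.013 (SE 0.069, 95% interval -0.18 to 0.15, adjusted p = 0.912, limma). The antisense gene ZEB1-AS1, which starts beside it, also overlapped between groups, at means of 4.22 and 3.62 FPKM with a log2 fold change of -0.17 (adjusted p = 0.472, limma).

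ZEB2, the paralogue of ZEB1 (chromosome 2, 144364364 to 144521057, minus strand), shared its row with the antisense gene ZEB2-AS1, and reads of the pair cannot be told apart in it. The row was at 1.18, 1.44 and 0.870 FPKM in shCtr and at 0.922, 1.03 and 0.896 FPKM in shZNF148. The shZNF148 values lay inside the range of shCtr. The log2 fold change was -0.14 (SE 0.145, 95% interval -0.49 to 0.20, adjusted p = 0.521, limma). ZEB1 stood above the ZEB2 row in each sample, by a ratio of 9.42 to 15.4 in shCtr and of 12.6 to 15.0 in shZNF148.

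SNAI2, or Slug, a zinc finger repressor expressed in basal breast cells (chromosome 8, 48917598 to 48921740, minus strand), had the largest difference among the 5 tested genes. It was at 13.3, 16.5 and 11.9 FPKM in shCtr and at 17.5, 24.2 and 19.6 FPKM in shZNF148. The groups did not overlap, as in 41% of all tested rows (20% with shZNF148 higher), and shZNF148 replicate 2 stood highest. The ratio of means was 1.47, and the log2 fold change 0.52 (SE 0.153, 95% interval 0.16 to 0.89, adjusted p = 0.0656, limma). By exact two-sided permutation its p was 0.1, and groups of 3 cannot go lower.

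SNAI1, or Snail, the closest relative of SNAI2 here (chromosome 20, 49982980 to 49988886, plus strand), lay the other way. Its level was 3.73, 2.67 and 2.70 FPKM in shCtr and 2.38, 1.87 and 2.32 FPKM in shZNF148. The groups did not overlap, as in 21% of all tested rows with shZNF148 lower, and the shZNF148 mean was 72.1% of that in shCtr. The log2 fold change was -0.33 (SE 0.142, 95% interval -0.67 to 0.0067, adjusted p = 0.154, limma). Neither SNAI gene passed the test. Within samples, the ratio of SNAI2 to SNAI1 was 3.56, 6.17 and 4.42 in shCtr and 7.34, 12.9 and 8.45 in shZNF148. Every shZNF148 ratio lay above every shCtr ratio, which is a description of the 2 differences above and was not tested apart from them.

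The 3 cadherins stayed under the filter of 1 FPKM and have no adjusted p. CDH1, or E-cadherin, the adhesion protein of epithelial junctions (chromosome 16, 68737292 to 68835537, plus strand), was at 0.267, 0.491 and 0.347 FPKM in shCtr and at 0.301, 0.131 and 0.272 FPKM in shZNF148. The groups overlapped (exact two-sided permutation p = 0.3, n = 3 per group). CDH2, or N-cadherin, the adhesion protein of neural and mesenchymal cells (chromosome 18, 27932879 to 28177946, minus strand), was at 0.565, 0.395 and 0.486 FPKM in shCtr and at 0.596, 0.892 and 1.24 FPKM in shZNF148. The groups did not overlap and the ratio of means was 1.88, while the lowest shZNF148 value lay close to the highest shCtr value. The exact two-sided permutation p for CDH2 was 0.1 (n = 3 per group), the smallest this design allows. Of 2044 rows that averaged under 1 FPKM and were above 0 in all 6 samples, 24.8% had groups that did not overlap and 12.3% had shZNF148 higher.

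CDH11, or cadherin-11, a cadherin of mesenchymal cells and osteoblasts (chromosome 16, 64943753 to 65126112, minus strand), was at 0, 0.149 and 0 FPKM in shCtr and at 0.202, 0 and 0.323 FPKM in shZNF148. Both groups held a sample at 0 and they overlapped (exact two-sided permutation p = 0.4, n = 3 per group). The shCtr sample above 0 was replicate 2, the sample with DCN, and 6 of the 7 fibroblast markers were highest there (all but PDGFRB). The 2 higher CDH11 values, in shZNF148 replicates 1 and 3, came with DCN at 0. The summed fibroblast markers ranged from 9.96 to 15.8 FPKM in shCtr and from 5.87 to 9.40 FPKM in shZNF148, and their part in the CDH11 values was not tested. A count of 0 allows up to 3 fragments as a one-sided limit (3.69 in the two-sided intervals plotted), and at CDH11 3 fragments would be worth 0.0976 and 0.0928 FPKM in shCtr replicates 1 and 3 and 0.0874 FPKM in shZNF148 replicate 2.

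Low values fell on steps of whole fragments, which gives the number of fragments behind them. Whole numbers in all 6 samples, within 0.03 of a fragment, were found for 1460 of the 2044 low rows (71.4%). The smallest whole numbers are given, and true numbers may be a multiple of them. CDH1 rested on 11, 22 and 15 fragments in shCtr and 14, 6 and 9 in shZNF148, and CDH2 on 21, 16 and 19 against 25, 37 and 37. CDH11 rested on 0, 5 and 0 against 7, 0 and 8 fragments, and SNAI1 on 50, 39 and 38 against 36, 28 and 25. Scaled to relative depth, the summed fragments of shZNF148 over shCtr gave a ratio of 1.82 for CDH2 (exact 95% interval 1.30 to 2.57) and of 0.622 for CDH1 (0.378 to 1.01). The same ratio was 0.721 for SNAI1 (0.544 to 0.953) and 3.09 for CDH11 (1.07 to 10.9). These intervals cover counting error only and compare these libraries, not the conditions.

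EPCAM, a surface protein of epithelial cells (chromosome 2, 47345158 to 47387601, plus strand), stood below ZEB1 and far above CDH1 in these cells. It was at 10.7, 11.1 and 9.92 FPKM in shCtr and at 8.19, 10.9 and 8.0 FPKM in shZNF148. The groups overlapped through shZNF148 replicate 2. The log2 fold change was -0.22 (SE 0.124, 95% interval -0.51 to 0.080, adjusted p = 0.266, limma). Without shZNF148 replicate 2 it was -0.35 with an adjusted p of 0.0391 (limma), still under 1.5-fold.

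**Figure D2:**
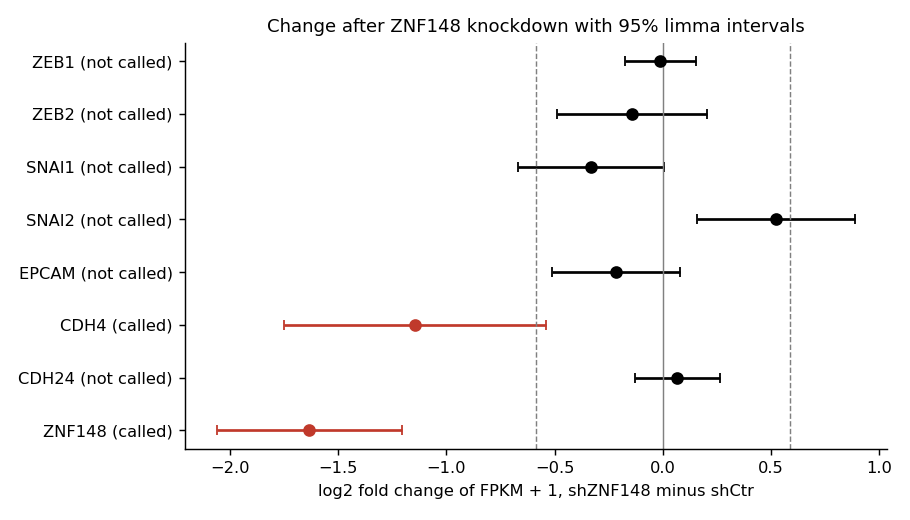
Log2 fold change of FPKM + 1 (shZNF148 minus shCtr) with 95% limma intervals for the 5 tested genes, for the cadherins CDH4 and CDH24 and for ZNF148. Dashed lines mark 1.5-fold, and red marks called rows: CDH4 (-1.15) and ZNF148 (-1.63).

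The other genes of the pathway were taken from 8 hand-written lists. These lists were chosen with earlier results of these data known, so their share of calls is a description and no test of enrichment. Over their 119 tested rows, 4 were called higher and 10 lower in shZNF148 (11.8%, against 5.49% of all tested rows), and the median log2 fold change was -0.15. The counts of higher and lower list rows were 0 and 1 without shCtr replicate 1, 0 and 3 without shCtr replicate 2, and 0 and 2 without shCtr replicate 3, and 6 were lower without shZNF148 replicate 1. Of 16 further cadherins, 5 were at 0 in all samples, 2 were tested and 1 was called. In shCtr, CDH4, or R-cadherin, a classical cadherin close to CDH2, was the most abundant of the cadherins listed. It was at 23.0, 22.4 and 22.0 FPKM in shCtr and at 12.6, 5.82 and 11.9 FPKM in shZNF148. Every shZNF148 sample was below every shCtr sample, as in 21% of all tested rows. CDH4 fell by 1.15 on the log2 scale (SE 0.254, adjusted p = 0.0356, limma). Its adjusted p (limma) was 0.0600 with a block for replicate number and 0.0550 without a filter. Without shCtr replicate 1, 2 or 3 it was 0.121, 0.0910 and 0.105 (limma). CDH4 lost its call under 6 of 15 alternatives. CDH24 was at 10.7 ± 0.233 FPKM (SD, n = 3) in shCtr and 11.3 ± 0.95 in shZNF148 (adjusted p = 0.605, limma).

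Among 11 tested catenins and junction anchors, 0 were called higher and 1 lower (9.09%, against 5.49% of all tested rows). JUP, or plakoglobin, which links cadherins to the cytoskeleton, fell from 28.8 ± 0.460 to 18.2 ± 2.53 FPKM (SD, n = 3, adjusted p = 0.0179, limma). CTNNB1, or beta-catenin, was at 116 and 113 FPKM and CTNNA1, or alpha-catenin, at 168 and 170 FPKM in shCtr and shZNF148, and neither passed the test. Of 24 tested epithelial junction and surface genes, 4 were called lower and 1 higher (20.8%). The list median was -0.28, against 0.0061 over all tested rows. The lower ones were the protease inhibitors SPINT1 (12.3 to 6.29 FPKM, adjusted p = 0.0372) and SPINT2 (216 to 142 FPKM, adjusted p = 0.0416), the mucin MUC1 and the junction protein CXADR (limma). Of 15 alternatives, SPINT2 lost its call under 9, SPINT1 under 7, CXADR under 5 and MUC1 under 4.

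Among partners and cleavage enzymes of EPCAM, 2 of 13 tested rows were called lower and 0 higher (15.4%, against 5.49% of all tested rows). The 2 lower rows were CD9, a tetraspanin (127 to 81.9 FPKM, adjusted p = 0.0108, limma), and FHL2, a LIM-domain cofactor (45.9 to 17.9 FPKM, adjusted p = 0.0243, limma). Of 13 tested rows of other transcription factors linked to the transition, 1 was called higher and 0 lower (7.69%). It was SOX9, a factor of progenitor cells, from 25.7 ± 1.94 to 39.4 ± 0.795 FPKM (SD, n = 3, adjusted p = 0.0111, limma). No row was called among 7 tested epithelial transcription and splicing factors or among 29 tested corepressors and turnover enzymes of SNAI and ZEB, by limma at the same thresholds.

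Of 22 tested mesenchymal genes, 2 were called higher and 2 lower (18.2%, against 5.49% of all tested rows). The list median was -0.28, against 0.0061 over all tested rows. S100A4, a calcium-binding protein, was at 367, 419 and 369 FPKM in shCtr and at 803, 1729 and 862 FPKM in shZNF148 (adjusted p = 0.0258, limma). COL6A1, a collagen chain, rose from 43.9 to 75.5 FPKM (adjusted p = 0.0250, limma). LOX, a matrix cross-linking enzyme, fell from 27.7 to 10.4 FPKM (adjusted p = 0.00318, limma). VIM was at 1772 ± 67.6 and 1516 ± 11 FPKM (SD, n = 3, adjusted p = 0.0563, limma) and was not called.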

How the data were processed

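The authors deposited 1 table of FPKM values, normalised by them, in which each of the 6 samples has a column, and 0 sample columns were left unused. The submitters' processing notes name bcl2fastq 2.17.1.14, TopHat2 2.0.14, Cufflinks 2.2.1 and Cuffnorm 2.2.1 with hg18 and hg19, whereas the study's methods name Salmon, DESeq2 and GRCh38. Which of them made the table is not settled here, nor is whether reads were counted by strand. The table has no coordinates, and those printed come from GENCODE release 44 on GRCh38. Read totals are not given in the sources used here, so depth is known only relative to shCtr replicate 1.

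Groups and replicate numbers came from the sample labels. Rows that averaged at least 1 FPKM were fitted as log2(FPKM + 1) by limma 3.58.1 (R 4.3.3) on condition alone, with a mean-variance trend. P-values were adjusted by Benjamini-Hochberg over all tested rows, and calls needed an adjusted p under 0.05 together with a change above 1.5-fold. Since the values are no counts, limma took the place of a count test. Genes named are the 10 listed, ZNF148, called rows of the lists and up to 4 of their most abundant tested rows, and cell type markers. ZEB1-AS1 was named beyond this rule, after its values were seen. Of the called list rows, 2 are not reported here by name and stay in the counts. Members and lists were chosen with earlier results of these data known. Fragment numbers were recovered from steps between low values, a step chosen after seeing the data, with Python 3.11.15 and scipy 1.17.1. For each row, the smallest set of whole numbers was sought that fitted the FPKM values and relative depths of all samples. The lowest sample above 0 was tried at up to 2000 fragments for the listed genes and up to 200 for the low rows. No such set was found for ZEB1 or for the ZEB2 row. Of the list genes, 1 symbol (DUB3) was not matched. Alternatives covered filter, pseudocount, scaling, replicate block, variance trend, summed rows and each replicate left out. In simulated data with 200 rows changed by 2 on the log2 scale, limma recovered 97.5% of them with 7 false calls. Changes as small as those of the 10 genes were not simulated, so this gives no power for them. Whole fragments, up to a common factor, were recovered in 100% of 2712 simulated rows. Their values came from whole fragments with no other error. Only simulated rows with at least 4 samples above 0 were scored, and CDH11 had fewer, so the simulation does not cover it.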

Additional observations from a re-analysis of the deposited data

How the results depend on the processing

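ZEB1, ZEB2, SNAI1, SNAI2 and EPCAM were called by limma under none of the alternatives in which each was tested. CDH2 was tested only with the filter at 0.5 FPKM and with none, CDH1 and CDH11 only with none, and they were not called there; TWIST1 and TWIST2, at 0, were never tested. ZEB1 was at -0.013 on the log2 scale, and with 1 replicate left out it ranged from -0.048 to 0.0098, turning to 0.0016 without shCtr replicate 2 and to 0.0098 without shZNF148 replicate 3. Over 15 alternatives, SNAI2 ranged from 0.40 to 0.64 (adjusted p 0.0572 to 0.183, limma), SNAI1 from -0.44 to -0.16 (0.128 to 0.373) and EPCAM from -0.35 to -0.14 (0.0391 to 0.491). ZEB2 ranged from -0.25 to -0.050 over 14 alternatives (adjusted p 0.351 to 0.671, limma). With a filter of 0.5 FPKM CDH2 had an adjusted p of 0.162, and with none 0.148 (limma). Counts of calls over all rows moved more, from 216 higher and 431 lower to 76 and 204 with a pseudocount of 5. With the replicate number as a block they were 99 and 216, and 5 list rows were called lower in place of 10. The main fit used condition alone because the study names no other term. Same-numbered samples did not deviate together either (r = 0.00104, -0.0881 and 0.0304). With 1 replicate left out, calls over all rows ranged from 3 to 222 higher and from 26 to 397 lower, and list calls from 0 to 4 higher and from 1 to 11 lower. The higher and lower calls were 3 and 26 without shCtr replicate 1, 76 and 175 without shCtr replicate 2, 7 and 40 without shCtr replicate 3, and 79 and 232 without shZNF148 replicate 1. LOX kept its call under all 15 alternatives, and the other 13 called list genes each lost it under between 2 and 9. The cause of these shifts was not tested. The values of CDH1, CDH2 and CDH11 rest on few fragments, as far as the smallest whole numbers show.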
